A study of Mus musculus with 9 samples.

Results

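The epicardial genes described here are Wt1, Tbx18, Tcf21, Aldh1a2, Upk3b and Msln, 6 of the 20239 genes with a probe set of a single gene symbol on these arrays. They were chosen by symbol, and each had 1 probe set. RNA of 9 hearts was read on Affymetrix arrays, with 3 male C57BL/6 mice in each of 3 groups. Every mouse received an adeno-associated virus (AAV) at 8 weeks of age, underwent surgery 4 weeks later and was killed 4 weeks after surgery. The virus drove its cargo from a myosin light chain (MLC) promoter, a promoter of heart muscle cells. The sham group carried luciferase (AAV-Luc) and had surgery without constriction. The TAC-luciferase group carried the same control virus and had transaortic constriction (TAC), which loads the heart with pressure. The TAC-HDAC4-NT group had TAC and a virus for amino acids 1 to 201 of histone deacetylase 4. All 9 hearts thus carried a virus, and no sham group received the HDAC4 fragment.

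The epicardium is the mesothelial sheet that covers the heart. In the embryo its cells are recruited to the heart surface, and some of them leave the sheet by an epithelial-to-mesenchymal transition and become fibroblasts and vascular mural cells. The adult sheet is mostly quiescent and can switch its embryonic programme back on after injury. Wt1, Tbx18 and Tcf21 encode transcription factors of that programme. Aldh1a2 encodes the enzyme that makes retinoic acid in the epicardium, and Upk3b and Msln encode surface proteins of mesothelium. None of the 4 regulators and enzymes is confined to the sheet in the adult. Wt1 can also be switched on in endothelium, Tcf21 marks resident fibroblasts, Tbx18 marks pericytes and smooth muscle, and Aldh1a2 can appear in other stromal cells. In RNA from a whole heart, more cells of a type and more RNA per cell cannot be told apart.

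In these hearts Aldh1a2 rose after TAC with either virus, and Wt1 rose after TAC with luciferase, an increase carried by 2 of the 3 hearts. Tbx18, Tcf21 and Upk3b did not pass the test in any comparison, and Msln was too low to be tested. The values are log2 intensities from RMA, a method that summarises the probes of a gene and gives all arrays the same distribution. They ran from 5.03 to 14.11, with a median of 5.88. The test took only genes that exceeded 5.66, a value chosen as the 40th percentile of the table, in 3 or more hearts, and 5 of the 6 epicardial genes passed. The table has no detection call. RMA can compress low values, so folds of genes near the lower end of the scale may be understated, which was not tested here.

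**Figure D1:**
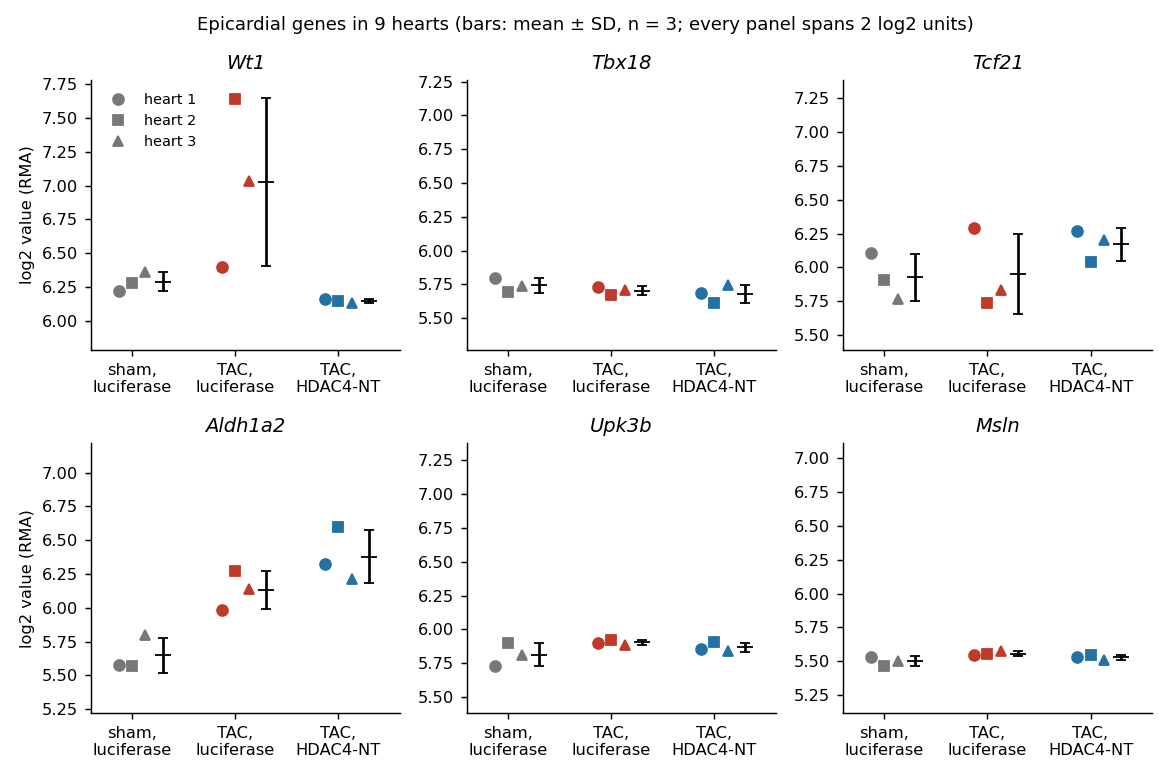
Log2 value (RMA) of each of the 6 epicardial genes in every heart, by group, with the group mean and SD (n = 3); each vertical axis spans 2 log2 units from its own start, since levels of different probe sets are not comparable. Wt1 stands at 7.64 and 7.04 in TAC-luciferase hearts 2 and 3 and between 6.13 and 6.40 in the other 7 hearts, and Aldh1a2 is above all sham hearts in all 6 TAC hearts.

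As a check of the tissue, 6 markers of ventricular heart muscle had values between 11.74 and 13.51 on all arrays. Of 15 other mesothelial and epicardial surface genes, 8 did not pass the filter, and these 8 were below 5.66 on all 9 arrays. They were Upk1b, Krt7, Krt19, Muc16, Lrrn4, Gpm6a, Bnc1 and Cdh1. The same filter removed 7642 of all 20239 genes. TAC-luciferase hearts 2 and 3 correlated at 0.9941 with each other over the tested genes (Pearson's r), and at 0.9857 and 0.9867 with heart 1. Heart 1 correlated at 0.9914 to 0.9918 with the TAC-HDAC4-NT hearts. Results that rest on hearts 2 and 3 are given with and without them. In the labels these hearts share the first number of a sample code, which heart 1 does not share, and the labels do not say what it stands for. No first number is shared between groups, so what it marks cannot be told apart from any difference between groups. With that number as a random block (consensus correlation -0.113), Wt1 stood at 0.76 in TAC-luciferase against sham and Aldh1a2 at 0.49 (limma adjusted p 0.0278 and 0.0052). As each number lies within a single group, this block cannot adjust the comparisons for what the code marks. Its negative correlation made the SE smaller than in the main fit. The SE was 0.22 against 0.24 for Wt1 and 0.099 against 0.11 for Aldh1a2. The lower adjusted p-values are therefore not firmer support for either rise. The part of whatever the code marks in the values of hearts 2 and 3 was not tested. The level of atrial genes differed between hearts, and the part of atrial tissue in this was not tested. The mean log2 value of the atrial genes Myl4, Myl7, Sln and Mybphl ran from 6.43 to 7.49 in sham, from 5.98 to 8.07 in TAC-luciferase and from 5.94 to 6.94 in TAC-HDAC4-NT hearts.

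Aldh1a2 encodes retinaldehyde dehydrogenase 2, which oxidises retinaldehyde to retinoic acid, a signal that the embryonic epicardium sends to the muscle beneath. Its log2 value was 5.58, 5.57 and 5.80 in sham hearts 1 to 3. It was 5.99, 6.27 and 6.14 in TAC-luciferase hearts 1 to 3 and 6.33, 6.59 and 6.22 in TAC-HDAC4-NT hearts 1 to 3. Both TAC groups lay wholly above the sham hearts, and the TAC groups overlapped each other. Sham hearts 1 and 2 were below the filter value of 5.66, and all 6 TAC hearts were above it. The mean was 5.65 ± 0.13 in sham, 6.13 ± 0.14 in TAC-luciferase and 6.38 ± 0.19 in TAC-HDAC4-NT (SD, n = 3).

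TAC with luciferase raised Aldh1a2 by 0.48 log2 units over sham, or 1.40-fold (SE 0.11, limma adjusted p 0.0116). TAC with HDAC4-NT raised it by 0.73 log2 units, or 1.66-fold (SE 0.11, limma adjusted p 0.00163). Both calls held when each of the 9 arrays was left out in turn, with limma adjusted p-values up to 0.0449 and 0.00859. They also held with no filter on low values (limma adjusted p 0.0278 and 0.00561). Without TAC-luciferase hearts 2 and 3, the single heart left in that group stood 0.34 above sham, and the first call was lost (limma adjusted p 0.186). That fit assumes that the lone heart varies as the other groups do. Between the TAC groups Aldh1a2 differed by 0.25 log2 units, higher with HDAC4-NT, with a 95% interval from -0.0037 to 0.50 and a limma adjusted p of 0.355. A difference between the TAC groups was therefore not detectable, and the interval reaches to about the size of the rise after TAC with luciferase.

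The reference sequence before the start of Aldh1a2 is shown because this is the epicardial gene that rose with either virus. It covers the 250 bases before the start in the RefSeq promoter table of build GRCm38.p6, chr9:71215539-71215788, plus strand. The promoter table had entries for 4 of the 6 genes, Aldh1a2, Tbx18, Tcf21 and Upk3b. Capitals mark matches to the motifs searched.
Aldh1a2: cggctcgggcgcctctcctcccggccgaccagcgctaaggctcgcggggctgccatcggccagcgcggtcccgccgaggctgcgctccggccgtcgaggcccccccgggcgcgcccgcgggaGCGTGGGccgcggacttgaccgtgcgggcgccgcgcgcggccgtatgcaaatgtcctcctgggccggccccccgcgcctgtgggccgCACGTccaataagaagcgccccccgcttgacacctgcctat

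This stretch was 77.6% G and C, against a median of 52.4% over all 32851 promoters of the table. The motifs, searched on both strands, were the core GCGTGGG shared by WT1 and EGR proteins, the cores ACGTG and GCGTG bound by hypoxia-inducible factors, and GGAATG of TEAD factors. The others were TGANTCA of AP-1, AGGTCA of retinoic acid receptors, AGATAA of GATA factors and the TATA box, searched as TATAAA. The WT1 and EGR core lay at bases 123 to 129, counted from the first base printed, and 4.3% of all promoters hold it in this window. The same bases hold GCGTG, found in 28.2% of promoters. ACGTG lay on the minus strand at bases 210 to 214, and 16.6% of promoters have it. Of the other 3 genes with an entry, Tcf21 held the GCGTG core and the GATA motif, and Upk3b held the TEAD motif and that of retinoic acid receptors. Among all promoters 12.6% hold the TEAD motif, 14% the receptor motif and 9.99% the GATA motif. The AP-1 motif (6.75% of promoters) and the TATA box (12.4%) matched none of the 4 stretches, and Tbx18 held none of the motifs. These are matches of letters only.

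Wt1 encodes a zinc finger factor that maintains the embryonic epicardium and its transition to mesenchyme. Its log2 value was 6.22, 6.28 and 6.36 in sham hearts 1 to 3. It was 6.40, 7.64 and 7.04 in TAC-luciferase hearts 1 to 3, and 6.16, 6.15 and 6.13 in TAC-HDAC4-NT hearts 1 to 3. The 3 groups did not overlap. TAC-luciferase heart 1, however, lay only just above the highest sham heart, and hearts 2 and 3 carried the group mean of 7.03 ± 0.62 (SD, n = 3). The SD in that group was larger than that of 99.2% of the genes tested, while the SD of 0.014 in the TAC-HDAC4-NT group was among the smallest 4.87%.

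Wt1 was 1.67-fold higher in TAC-luciferase than in sham hearts (log2 fold change 0.74, SE 0.24, limma adjusted p 0.0497), just inside the threshold of 0.05. Leaving out any 1 of the 3 sham hearts, the 3 TAC-HDAC4-NT hearts, TAC-luciferase heart 2 or TAC-luciferase heart 3 ended the call (limma adjusted p 0.0696 to 0.129). The log2 fold change was 0.43 without TAC-luciferase heart 2. It was 0.11 without both hearts 2 and 3 (limma adjusted p 0.383), and 1.05 without heart 1 (limma adjusted p 0.00106). Hearts 2 and 3 carried the increase.

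With HDAC4-NT after TAC, Wt1 was 1.84-fold lower than with luciferase, a log2 difference of -0.88 (SE 0.24, 95% interval -1.42 to -0.34). All 3 HDAC4-NT hearts lay below all luciferase hearts, but the limma adjusted p was 0.137. Without TAC-luciferase heart 1, which had the lowest Wt1 of its group, the difference was -1.19 and passed (limma adjusted p 0.00275). Without hearts 2 and 3 it was -0.25 (limma adjusted p 0.332). Against sham, TAC-HDAC4-NT hearts stood at -0.14 (SE 0.24, limma adjusted p 0.747). They lay below every sham heart, and with only the arrays of those 2 groups in the fit the SE was 0.054 and the limma adjusted p 0.102.

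**Figure D2:**
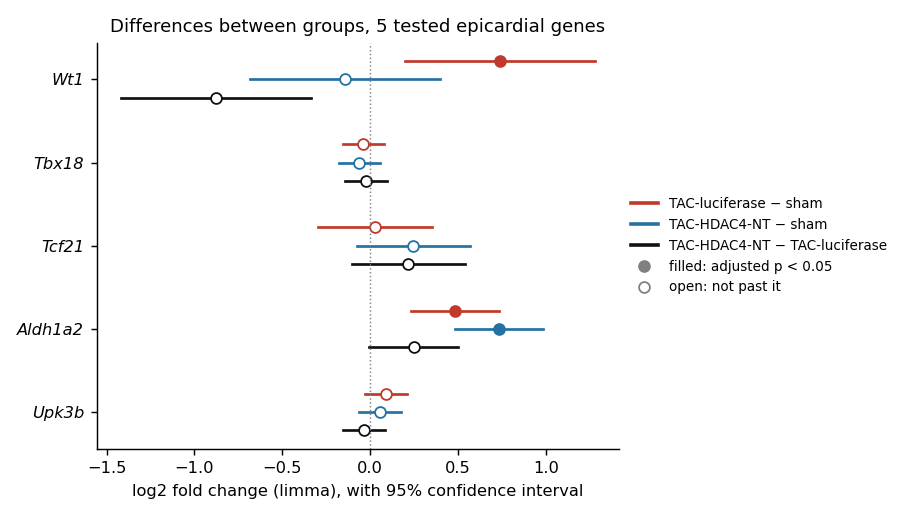
Log2 fold change with its 95% interval (horizontal axis) for the 5 tested epicardial genes in the 3 comparisons; filled points passed an adjusted p of 0.05 in limma. The filled points are Wt1 at 0.74 in TAC-luciferase against sham and Aldh1a2 at 0.48 and 0.73 in both comparisons with sham; no gene has a filled point between the TAC groups.

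Tcf21 encodes a basic helix-loop-helix factor that epicardial cells need to become fibroblasts and that resident cardiac fibroblasts keep. Its log2 value was 6.11, 5.90 and 5.76 in sham hearts 1 to 3. It was 6.29, 5.74 and 5.83 in TAC-luciferase hearts 1 to 3, and 6.27, 6.04 and 6.21 in TAC-HDAC4-NT hearts 1 to 3. The groups overlapped in all comparisons. TAC-luciferase hearts 2 and 3, the hearts with the highest Wt1, had lower Tcf21 than heart 1.

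The log2 fold change of Tcf21 was 0.03 in TAC-luciferase against sham (95% interval -0.30 to 0.35, limma adjusted p 0.919), and its sign turned with the setting. It was 0.25 in TAC-HDAC4-NT against sham (-0.08 to 0.57, limma adjusted p 0.272) and 0.22 between the TAC groups (-0.11 to 0.54, limma adjusted p 0.557). Between the TAC groups it was -0.12 without TAC-luciferase hearts 2 and 3. The spread between hearts was wide, so changes of this size could not be resolved.

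Tbx18 encodes a T-box factor of the epicardium and of mural cells. Its log2 values stayed between 5.61 and 5.80 in all 9 hearts. Upk3b, a uroplakin of mesothelial surfaces, ranged from 5.73 to 5.92. The groups overlapped for both genes in every comparison, and no call was made. For Tbx18 the log2 fold change was -0.04 in TAC-luciferase and -0.06 in TAC-HDAC4-NT hearts against sham, with 95% intervals from -0.16 to 0.08 and from -0.18 to 0.06. For Upk3b these were 0.09 and 0.05, with 95% intervals from -0.03 to 0.21 and from -0.06 to 0.17. Between the TAC groups Tbx18 stood at -0.02 (95% interval -0.14 to 0.10) and Upk3b at -0.04 (-0.15 to 0.08). These intervals are narrow, but they apply to values near the lower end of the scale, where folds may be understated.

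Msln encodes mesothelin, a surface protein of mesothelium. It was below 5.66 on all 9 arrays and was not tested in the main fit. Its log2 value was 5.53, 5.46 and 5.50 in sham hearts 1 to 3, 5.54, 5.55 and 5.57 in TAC-luciferase and 5.53, 5.54 and 5.51 in TAC-HDAC4-NT hearts 1 to 3. The TAC-luciferase hearts lay above the sham hearts by a mean of 0.06. With every gene tested, its limma adjusted p was 0.178 against sham in TAC-luciferase and 0.556 in TAC-HDAC4-NT hearts, and 0.754 between the TAC groups.

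In TAC-luciferase against sham, 2 of the 5 tested epicardial genes were higher and 0 lower, where 26.1% of the 12597 tested genes were called, 11.2% higher and 14.9% lower. In TAC-HDAC4-NT against sham 1 was higher and 0 lower, where 22.8% were called, 10.5% higher and 12.3% lower. None of the 5 was called between the TAC groups, where 0.254% of the tested genes were, 0.143% higher and 0.111% lower with HDAC4-NT. Of the 5 tested genes, Wt1 and Aldh1a2 had groups that did not overlap in TAC-luciferase against sham (37.4% of tested genes) and in TAC-HDAC4-NT against sham (39.7%), and Wt1 between the TAC groups (20.4%). The comparisons with sham share the sham arrays and are not independent of each other. The shares of 5 genes are too few to set this group apart from the rest of the array.

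**Figure D3:**
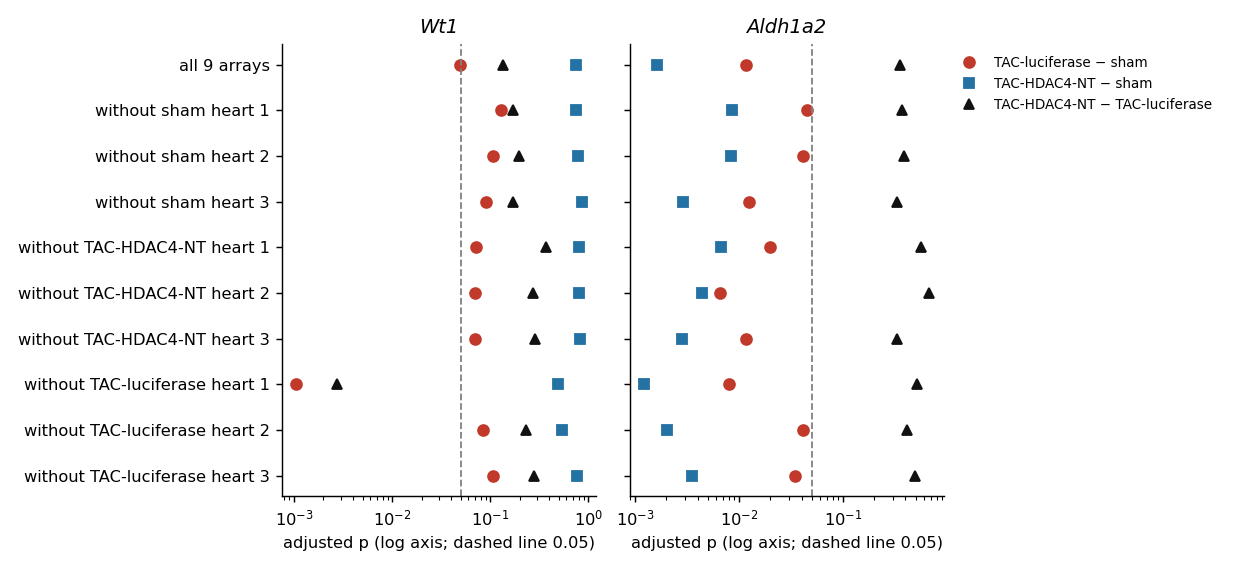
Adjusted p of Wt1 and Aldh1a2 (log axis, dashed line at 0.05) with all 9 arrays and without each array in turn, for the 3 comparisons. Aldh1a2 stays left of the line against sham in both TAC groups throughout, whereas Wt1 in TAC-luciferase against sham is clearly left of it only without TAC-luciferase heart 1 (0.00106).

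Within the groups, pairs of the genes ran from opposed to parallel. After the group means were removed, the correlation over the 9 arrays was lowest between Tbx18 and Upk3b (-0.84) and highest between Tbx18 and Tcf21 (0.60). It was -0.81 between Wt1 and Tcf21, 0.57 between Wt1 and Aldh1a2 and -0.78 between Tcf21 and Aldh1a2, and -0.65 between the surface genes Upk3b and Msln. These values describe 9 arrays of 3 groups that were scaled together. Tbx18, Upk3b and Msln varied by only 0.19, 0.19 and 0.11 log2 units over all arrays, and Msln was below the filter value throughout. Correlations with these genes rest on very small differences near the lower end of the scale.

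The genes whose pattern over the 9 arrays was most like that of Wt1, by Pearson's r, were Plaur (0.993), Adamts9 (0.988) and Adamts4 (0.987). Plaur encodes the urokinase receptor, and Adamts4 and Adamts9 encode proteases that cut proteoglycans. All had their highest values in TAC-luciferase hearts 2 and 3. Plaur and Adamts4 were above the filter value in the 3 TAC-luciferase hearts only and passed the filter through them. Plaur stood at 6.65 and 6.17 there, against 5.76 in heart 1, 5.63 to 5.65 in sham and 5.58 to 5.61 in TAC-HDAC4-NT. Adamts9 stood at 9.59 and 8.94, against 7.34 in heart 1, and Adamts4 at 7.40 and 6.45, against 5.79.

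For Aldh1a2 the nearest genes were Hr (0.96), Atox1 (0.957) and Vcan (0.953). Vcan encodes versican, a large matrix proteoglycan, and Hr encodes a nuclear receptor corepressor. Vcan was 6.42, 6.37 and 7.15 in sham, 7.98, 8.59 and 8.62 in TAC-luciferase and 8.45, 8.86 and 8.44 in TAC-HDAC4-NT hearts 1 to 3. Sham heart 3 was the highest sham heart for both Vcan and Aldh1a2.

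**Figure D4:**
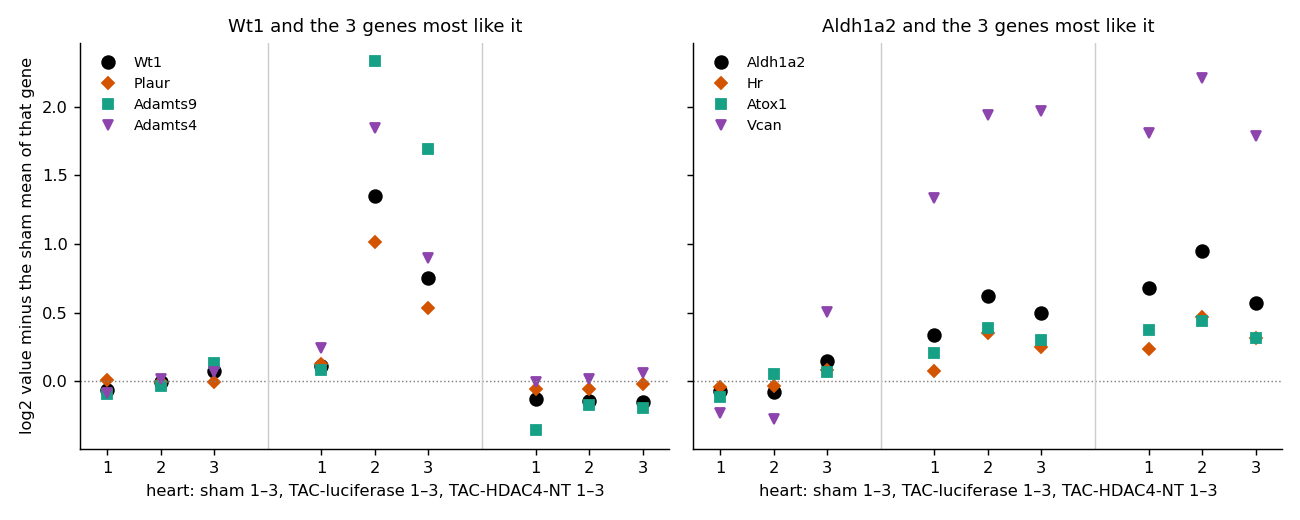
Log2 value minus the sham mean of the same gene (vertical axis) in each heart (horizontal axis), for Wt1 and for Aldh1a2 with the 3 genes most correlated with each over the 9 arrays. The Wt1 set is raised in TAC-luciferase hearts 2 and 3, and the Aldh1a2 set lies above its sham means in the 6 TAC hearts. Hr in TAC-luciferase heart 1 (log2 value 6.157) is not above sham heart 3 (6.162). The genes were picked for this likeness.

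The genes nearest to Tcf21 were Ess2 (0.982), Mknk1 (0.97) and Dtx3l (0.963). Those nearest to Tbx18 were Depdc1b (0.941), Jade3 (0.914) and Hexim1 (0.914), and to Upk3b Isl2 (0.946), Tubb1 (0.925) and Paqr6 (0.921). For Msln they were Tbcb (0.953), Snx1 (0.929) and Mrpl52 (0.921). Tbx18, Upk3b and Msln vary by 0.19, 0.19 and 0.11 log2 units in all, so their rankings rest on very small differences.

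Of the 15 other mesothelial and epicardial surface genes, 7 were tested, and 2 rose in both comparisons with sham. Of all tested genes, 11.2% were higher than in sham with luciferase and 10.5% with HDAC4-NT. Pdpn encodes podoplanin, a surface glycoprotein of mesothelium and of activated stromal and lymphatic cells. It was 5.70 to 5.82 in sham, 6.23 to 6.40 in TAC-luciferase and 6.35 to 6.47 in TAC-HDAC4-NT hearts, a rise of 0.54 and 0.62 log2 units over sham (limma adjusted p 0.000355 and 0.000179). Sema3d, a secreted guidance factor made by epicardium, rose by 0.34 and 0.42 (limma adjusted p 0.00168 and 0.000652). It was below the filter value in all sham hearts and passed the filter through the TAC hearts, and with no filter its limma adjusted p was 0.00195 and 0.000949. Krt8, Krt18, Rspo1, Nkain4 and Itga4 were tested and did not pass. Krt18, a keratin of simple epithelia named after its values were seen, stood at 0.14 in TAC-luciferase hearts against sham (limma adjusted p 0.0545), and it passed with no filter (0.0207) and under cyclic loess scaling (0.0446). The median log2 fold change of the 7 was 0.14 with luciferase and 0.09 with HDAC4-NT against sham, where that of all tested genes was -0.01 in both.

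Retinoic acid acts through retinoic acid receptors paired with retinoid X receptors. While Aldh1a2 rose, the retinoid X receptor genes Rxra, Rxrb and Rxrg fell. The retinoic acid receptor genes differed: Rarb fell, and Rara rose with luciferase. Rarg did not pass, at -0.07 with luciferase and 0.07 with HDAC4-NT against sham (limma adjusted p 0.693 and 0.708). Of 18 genes of the pathway on the array besides Aldh1a2, 15 were tested. In TAC-luciferase hearts 2 were higher and 5 lower than in sham, and in TAC-HDAC4-NT hearts 1 was higher and 4 lower. Over all tested genes 11.2% were higher and 14.9% lower with luciferase, and 10.5% higher and 12.3% lower with HDAC4-NT. Rxrg was 9.47, 9.37 and 9.15 in sham, 8.40, 8.54 and 8.47 in TAC-luciferase and 8.50, 8.73 and 8.58 in TAC-HDAC4-NT hearts 1 to 3. Its log2 fold changes of -0.86 and -0.72 against sham had limma adjusted p-values of 0.000211 and 0.000553. Rxra stood at -0.62 and -0.36 (limma adjusted p 0.000119 and 0.00208). Rarb, itself a classical target of retinoic acid, stood at -0.72 and -0.54 (limma adjusted p 0.000647 and 0.00342). Rxrb fell by 0.22 and 0.31 in the same comparisons (limma adjusted p 0.0141 and 0.00315).

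These receptor calls held without each array in turn, but that of Rxrb with luciferase was lost without both TAC-luciferase hearts 2 and 3 (limma adjusted p 0.158). The remaining genes called were named after their values were seen. Aldh1a1, another retinaldehyde dehydrogenase, was 0.46 higher in TAC-luciferase and 0.32 higher in TAC-HDAC4-NT hearts (limma adjusted p 0.00758 and 0.0406), and the second call was lost without any 1 of 7 arrays. With luciferase Rara, a receptor, was higher by 0.31 and Rdh10, which makes retinaldehyde, stood at -0.17 (limma adjusted p 0.0144 and 0.0222). Rara was not called without sham heart 1 or TAC-luciferase heart 2, and Rdh10 without any 1 of 4 arrays. Without TAC-luciferase hearts 2 and 3, 1 heart was left in that group. The calls of Aldh1a1 in both comparisons and of Rara with luciferase were then lost. Cyp26b1 and Cyp26c1, which break retinoic acid down, did not pass. Cyp26b1 stood at -0.11 with luciferase and -0.089 with HDAC4-NT, and Cyp26a1 was removed by the filter. None of the 15 passed between the TAC groups, where Rxra stood at 0.26 (limma adjusted p 0.086) and passed without TAC-luciferase heart 1.

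The transition and signalling list held 29 genes known from the epicardium's conversion to mesenchyme, many of them active in other stromal cells too, and 27 were tested. In TAC-luciferase hearts 11 were higher and 7 lower than in sham, and in TAC-HDAC4-NT hearts 13 were higher and 4 lower. The shares over all tested genes were 11.2% higher and 14.9% lower with luciferase, and 10.5% and 12.3% with HDAC4-NT. Fstl1, a secreted glycoprotein that epicardium and stroma make, rose by 1.79 and 2.14 log2 units (limma adjusted p 1.09e-06 and 2.78e-07). The ligands Tgfb2 and Tgfb3, which drive the transition, rose by 1.92 and 2.26 and by 1.25 and 1.35. The 7 genes lower with luciferase were Fgf1, Fgf9, Gata6, Igf2, Pdgfa, Snai2 and Tgfbr3. Of these, Fgf9, Gata6, Igf2 and Tgfbr3 were the 4 lower with HDAC4-NT. The receptor gene Tgfbr3 stood at -0.75 and -0.44 (limma adjusted p 0.000618 and 0.00974). None of the 27 passed between the TAC groups, where the median was 0.086 against 0.0042 for all tested genes. Without TAC-luciferase heart 1, 5 of the 27 were higher and 4 lower with HDAC4-NT, where 300 and 397 of the 12597 tested genes were. Without each array in turn, the counts against sham were 11 to 13 higher and 3 to 7 lower with luciferase, and 10 to 14 higher and 3 to 5 lower with HDAC4-NT.

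**Figure D5:**
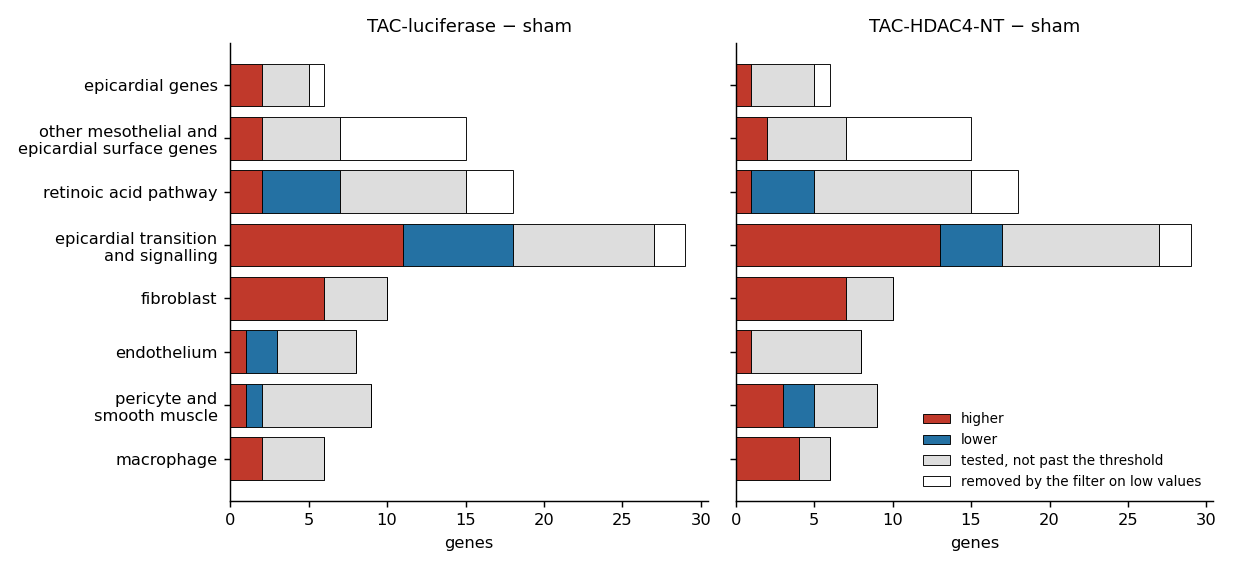
Number of genes (horizontal axis) higher, lower, tested without a call and removed by the filter on low values, for the epicardial genes, the pathway lists and the markers of other cells, against sham. In the list of other mesothelial and epicardial surface genes 8 of 15 were removed by the filter, while all 10 fibroblast markers were tested and 6 and 7 were higher.

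Markers of other cells that can express these genes moved with TAC as well. Of 10 fibroblast markers, 6 were higher with luciferase and 7 with HDAC4-NT than in sham, and 0 lower. Over all tested genes 11.2% and 10.5% were higher in these comparisons. The mean log2 value of these 10 was 8.27 to 8.34 in sham, 9.23 to 9.37 in TAC-luciferase and 9.39 to 9.52 in TAC-HDAC4-NT hearts. Postn, which encodes periostin, Meox1 and Col1a1 rose by 3.39, 1.86 and 1.44 log2 units with luciferase and by 3.72, 2.04 and 1.62 with HDAC4-NT. None of the fibroblast markers was below the filter value on all arrays. Thus the list was high in the same 6 hearts as Aldh1a2, and the part of fibroblasts in the rise of Aldh1a2 was not tested. The fibroblast markers Pdgfra, Dpt and Gsn did not pass in either comparison, and neither did Tcf21.

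Of 8 endothelial markers, Cdh5 stood at 0.23, Kdr at -0.68 and Tie1 at -0.22 log2 units with luciferase against sham (limma adjusted p 0.0295, 0.0144 and 0.0129). Cdh5 lost this call without any 1 of 4 arrays, Kdr without sham heart 1 and Tie1 without TAC-luciferase heart 2. The mean of the 8 was 8.86 and 9.02 in TAC-luciferase hearts 2 and 3, where Wt1 was highest, and 9.07 to 9.29 in the other hearts. The 8 genes did not go one way in these hearts. Kdr stood at 8.34 and 8.69 in hearts 2 and 3, against 9.11 in heart 1, whereas Cdh5 stood at 10.86 and 10.85 against 10.63. Pecam1 stood at 9.54 and 9.77 against 9.46, and Vwf at 7.04 and 7.05 against 6.85. In TAC-HDAC4-NT hearts only Cdh5 was called, at 0.31 (limma adjusted p 0.00829). For comparison, 11.2% of all tested genes were higher and 14.9% lower with luciferase, and 10.5% and 12.3% with HDAC4-NT. Without TAC-luciferase hearts 2 and 3, 1 heart was left in that group, and the calls of Cdh5, Kdr and Tie1 with luciferase were lost. All 8 endothelial markers passed the filter, and the part of endothelial cells in the Wt1 values was not tested.

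Of 9 pericyte and smooth muscle markers, 1 was higher and 1 lower with luciferase, and 3 were higher and 2 lower with HDAC4-NT. Over all tested genes 11.2% were higher and 14.9% lower with luciferase, and 10.5% and 12.3% with HDAC4-NT. The pericyte markers did not go one way. Cspg4 and Pdgfrb rose by 0.82 and 0.63 with HDAC4-NT. Abcc9, a potassium channel subunit of pericytes, stood at -0.68 with luciferase and -0.60 with HDAC4-NT. With HDAC4-NT Notch3 was also higher and Myh11 also lower. The list mean was 8.61 to 8.71 in sham, 8.54 to 8.64 in TAC-luciferase and 8.76 to 8.79 in TAC-HDAC4-NT hearts. Tbx18 did not pass in any comparison. No marker of this list was called between the TAC groups, but Cspg4 and Pdgfrb, at 0.43 and 0.45, passed under cyclic loess scaling (limma adjusted p 0.0493 for both). Of 6 macrophage markers, C1qa and Adgre1 rose in both TAC groups, by 0.87 and 0.51 with luciferase and 0.61 and 0.55 with HDAC4-NT. Csf1r and Cd68 were also higher with HDAC4-NT, and Cd68 lost this call without any 1 of 5 arrays.

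Markers of tissues that border the heart were low. Of 5 adipocyte genes, 4 were below 5.66 on all arrays, among them Adipoq, and of 5 lung epithelial genes 3 were, among them Sftpc. None of the tested genes of these lists or of the 4 tested atrial genes was called in any comparison, though atrial values differed widely between hearts. With the mean of the 4 atrial genes as a covariate, Aldh1a2 stood at 0.48 and 0.73 against sham (limma adjusted p 0.0189 and 0.0036), and Wt1 at 0.74 in TAC-luciferase (limma adjusted p 0.0669). Of the sinoatrial node genes, a tissue that also uses Tbx18, Hcn4 fell in both TAC groups, by 0.24 with luciferase and 0.38 with HDAC4-NT, and Tbx3 by 0.45 with luciferase. With luciferase Hcn4 lost its call without any 1 of 7 arrays and under cyclic loess scaling (limma adjusted p 0.0584), and Tbx3 without sham heart 1 or 3. Of 6 ventricular muscle genes, Myh6 stood at -0.23 in TAC-luciferase (limma adjusted p 0.0271), a call lost without any 1 of 4 arrays and under cyclic loess scaling.

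Of 9 near relatives of the epicardial genes on the array 4 were tested, and 1 was called. The shares of all tested genes that were higher were 11.2% with luciferase and 10.5% with HDAC4-NT. Tbx15, a close relative of Tbx18, rose by 0.33 and 0.34 against sham (limma adjusted p 0.000626 and 0.000558). With no filter its limma adjusted p was 0.000229 and 0.000191. Its log2 value was 5.39 to 5.40 in sham and 5.70 to 5.77 in all 6 TAC hearts, with no overlap, so that it passed the filter through the TAC hearts alone, whereas Tbx18 was 5.61 to 5.75 in the same TAC hearts and 5.69 to 5.80 in sham. The uroplakin gene Upk3a and the mesothelin-like gene Mslnl were tested and stood at 0.02 and -0.01 with luciferase, and Upk1a, Upk2 and Upk3bl were removed by the filter.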

How the data were processed

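Per the labels' protocols, Trizol was used for the heart RNA, from which biotinylated cRNA was made for the arrays. The authors deposited log2 values from RMA, per the submitters' processing notes. The RMA version and the genome build were not given in the sources used here. All 9 columns held the same sorted values. Precision is limited by the number of arrays.

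Of 21225 probe sets, 20239 had 1 gene symbol in the platform annotation and 986 were unlisted. A linear model with a mean per group was fitted over all 9 arrays and 12597 tested genes with limma 3.58.1 in R 4.3.3, with 6 residual and 3.23 prior degrees of freedom. Genes were called at a Benjamini-Hochberg adjusted p under 0.05, adjusted over all tested genes. Scripts were tested on simulated data. Figures used matplotlib 3.10.9 in Python 3.11.15. The labels give 3 animals per group.

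Every epicardial gene is named. From each other list, up to 3 called genes with the smallest p in each comparison are named, and for each epicardial gene the 3 tested genes of highest Pearson's r, leaving out predicted gene models. All other genes named were picked with their values in view. The genes and lists were chosen with earlier results of these data known. Other settings were other filters, priors, scalings, weights, blocks, thresholds and array subsets.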

Additional observations from a re-analysis of the deposited data

Results flagged for a closer look

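Wt1 values of the TAC groups lay on opposite sides of the sham values. All 3 TAC-luciferase hearts lay above every sham heart, and all 3 TAC-HDAC4-NT hearts lay below every sham heart. The HDAC4-NT hearts did not pass against sham (-0.14, limma adjusted p 0.747), and the rise with luciferase (0.74, limma adjusted p 0.0497) was 0.11 without TAC-luciferase hearts 2 and 3. The difference between the TAC groups was -0.88 log2 units, and it did not pass when tested (limma adjusted p 0.137). Plaur, the gene whose pattern was most like that of Wt1, had the same arrangement, with a difference of -0.60 (limma adjusted p 0.159), and it was picked for its likeness to Wt1. Plaur was below the filter value of 5.66 in all sham and TAC-HDAC4-NT hearts and was tested only through the TAC-luciferase hearts, so its order below that value is not a measured difference. With no filter its limma adjusted p was 0.273. Groups of 3 hearts are too small for a test of single outlying samples.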

How the results depend on the processing

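Depth is not defined for arrays, and the low signal of these genes over background limits what can be resolved. Aldh1a2 kept its direction under all settings tried and its call against sham in TAC-HDAC4-NT under all. In TAC-luciferase it lost the call at a threshold of 0.01 (0.48) and without TAC-luciferase hearts 2 and 3 (0.34). Wt1 in TAC-luciferase against sham lost its call with no filter (0.74, adjusted p 0.107), a trended and robust prior (0.74, 0.0753), only the 2 groups compared (0.74, 0.101), a threshold of 0.01 (0.74), the atrial covariate (0.74, 0.0669) and without TAC-luciferase hearts 2 and 3 (0.11). It ranged from 0.43 to 1.05 without each array. Between the TAC groups Wt1 passed with weighted arrays (-1.07, adjusted p 0.0171), and ranged from -1.19 to -0.57 without each array.

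Tcf21 in TAC-luciferase against sham turned to -0.050 with weighted arrays and ranged from -0.14 to 0.14 without each array. Between the TAC groups it turned to -0.12 without TAC-luciferase hearts 2 and 3, and Tbx18 ranged from -0.055 to 0.011 without each array. None of these passed.

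Over all genes, 3283, 32 and 2872 were called in TAC-luciferase against sham, between the TAC groups and in TAC-HDAC4-NT against sham. At a threshold of 0.01 these were 1748, 3 and 1579, and without TAC-luciferase hearts 2 and 3 the first was 1926. The count between the TAC groups was 10 with no filter, 103 with the stricter filter, 75 with the trended prior, 827 with weighted arrays, 177 with the sample code as a random block, 297 at 0.10, 10 without TAC-luciferase hearts 2 and 3 and 7 with the atrial covariate. It was 0 in limma with only the 2 groups compared (1868 at an unadjusted p under 0.05), and 1 to 697 without each array. The cause of these shifts was not tested. The covariate and the loss of both hearts were chosen after seeing the data.

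Deviations of same-numbered hearts correlated between -0.123 and 0.199 over 9 pairs, and 1 of 9 arrays correlated best with its own number. Such values over all genes cannot settle whether the hearts were paired. The replicate block gave 106 calls between the TAC groups. In TAC-luciferase against sham it left Wt1 at 0.74 (adjusted p 0.048) and Aldh1a2 at 0.48 (adjusted p 0.0163), and it changed no call of an epicardial gene.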
